A study of Homo sapiens with 9 samples.

Results

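HOX genes encode homeodomain transcription factors that stand in 4 clusters, and here they were the 31 probe sets, for 24 genes, whose platform annotation gave 1 gene symbol made of HOX, a cluster letter A to D and a paralogue number, out of 22215 probe sets tested. Vertebrate embryos express these genes in a nested order along the body axis, low paralogue numbers reaching forward into the hindbrain and high numbers confined to the trunk end and limb tips. Cells often keep part of this combination after they leave their place of origin, so the set of active HOX genes is read as a positional record. Polycomb complexes keep unused parts of a cluster silent, and the TALE homeodomain proteins of the PBX, MEIS and PKNOX families bind DNA together with HOX proteins. A probe set here is a group of short array probes for 1 transcript, read as 1 intensity after RMA, and a level of 1 probe set is not comparable with that of another.

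The data came from 9 expression arrays, all labelled as IMR-32, a human neuroblastoma line known for amplified MYCN. The enzyme that makes acetylcholine, choline acetyltransferase (ChAT), was stably expressed as its 69-kDa form in the group 69CHAT and as its 82-kDa form in 82CHAT, and cells labelled wild type made up WT, with 3 arrays each. The labels used here name no vector, promoter, clone or time, so an effect of a ChAT form and a difference between lines cannot be told apart. The design text calls the 3 samples of a group biological replicates, but nothing says they came from separate cultures, so p-values measure the spread between these samples, which may be technical.

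MYCN went against the label WT. Its probe set 209757_s_at read 4181, 5567 and 5947 on the 69CHAT arrays and 4301, 6025 and 6118 on the 82CHAT arrays, against 62.5, 120.5 and 99.97 on the arrays labelled WT. EPCAM, an epithelial adhesion molecule, read 24.7 to 29.7 on the 6 arrays of the lines and 493, 1121 and 1209 on those labelled WT. Summed over 9 epithelial genes the intensity was 384 to 422 in 69CHAT and 386 to 432 in 82CHAT, against 6587 to 7493 on the arrays labelled WT. In 69CHAT 7 of the 9 genes and in 82CHAT 6 stayed under the lower quartile of their array on all 3 arrays. CLDN4, 1 of those 7, was under it on the arrays labelled WT too. Over 14 neuroblastoma and sympathoadrenal genes the sums were 11413 to 19344 in 69CHAT and 15474 to 21056 in 82CHAT, against 2010 to 2246 on the arrays labelled WT. TH was under the lower quartile on all 9 arrays and HAND2 on those labelled WT. The brightest probe sets weigh most in such sums. Of 22 probe sets of that list 15 were higher and 1 lower in 69CHAT, and 14 and 1 in 82CHAT. Over 8 mesenchymal genes the sums were 5628 to 8975 in 69CHAT and 5502 to 8293 in 82CHAT, against 12371 to 13671 on the arrays labelled WT. But that list went both ways, with 4 of 20 probe sets higher and 7 lower in each line and TWIST1 6.59-fold and 7.34-fold higher. Of 10 epithelial probe sets 8 were lower in 69CHAT and 9 in 82CHAT, and 0 higher. Over all probe sets tested 10.9% were higher and 15.3% lower in 69CHAT, and 11.0% and 15.7% in 82CHAT, at the threshold given below. Log2 values of the lines correlated with those of the arrays labelled WT at 0.913 to 0.933, against 0.975 to 0.998 among arrays of the lines. A lower HOX value in a line is therefore a difference from the arrays labelled WT, and the part of cell identity or of the label in it was not tested. In bulk RNA, fewer cells of a kind and less RNA per cell cannot be told apart.

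Many HOX genes were lower in both ChAT lines than on the arrays labelled WT, and few were higher. In 69CHAT 15 of the 31 probe sets were lower (48.4%), for 12 genes, and 1 was higher, at an adjusted p (Benjamini-Hochberg, limma, over all probe sets tested) under 0.05. Of all probe sets tested 15.3% were lower and 10.9% higher in that comparison. In 82CHAT 15 probe sets were lower, for 13 genes, and 1 was higher, where 15.7% of all were lower and 11.0% higher. At least 2-fold lower were 9 probe sets in each line, but the share of all probe sets at that cut was not counted. The median log2 difference of the HOX probe sets was -0.37 in 69CHAT and -0.47 in 82CHAT, beside 0.06 over all probe sets in either comparison. Both comparisons use the same 3 arrays labelled WT, so their likeness is not independent evidence. A fit that blocks on replicate number gave 17 lower and 2 higher in 69CHAT (background 19.9% and 16.6%), and 18 lower and 3 higher in 82CHAT (20.3% and 17.9%). The arrays of 69CHAT all lay below those labelled WT for 18 probe sets and above for 3, as for 21.2% and 22.5% of all probe sets. In 82CHAT these were 18 and 5, beside 21.3% and 20.9%.

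**Figure D1:**
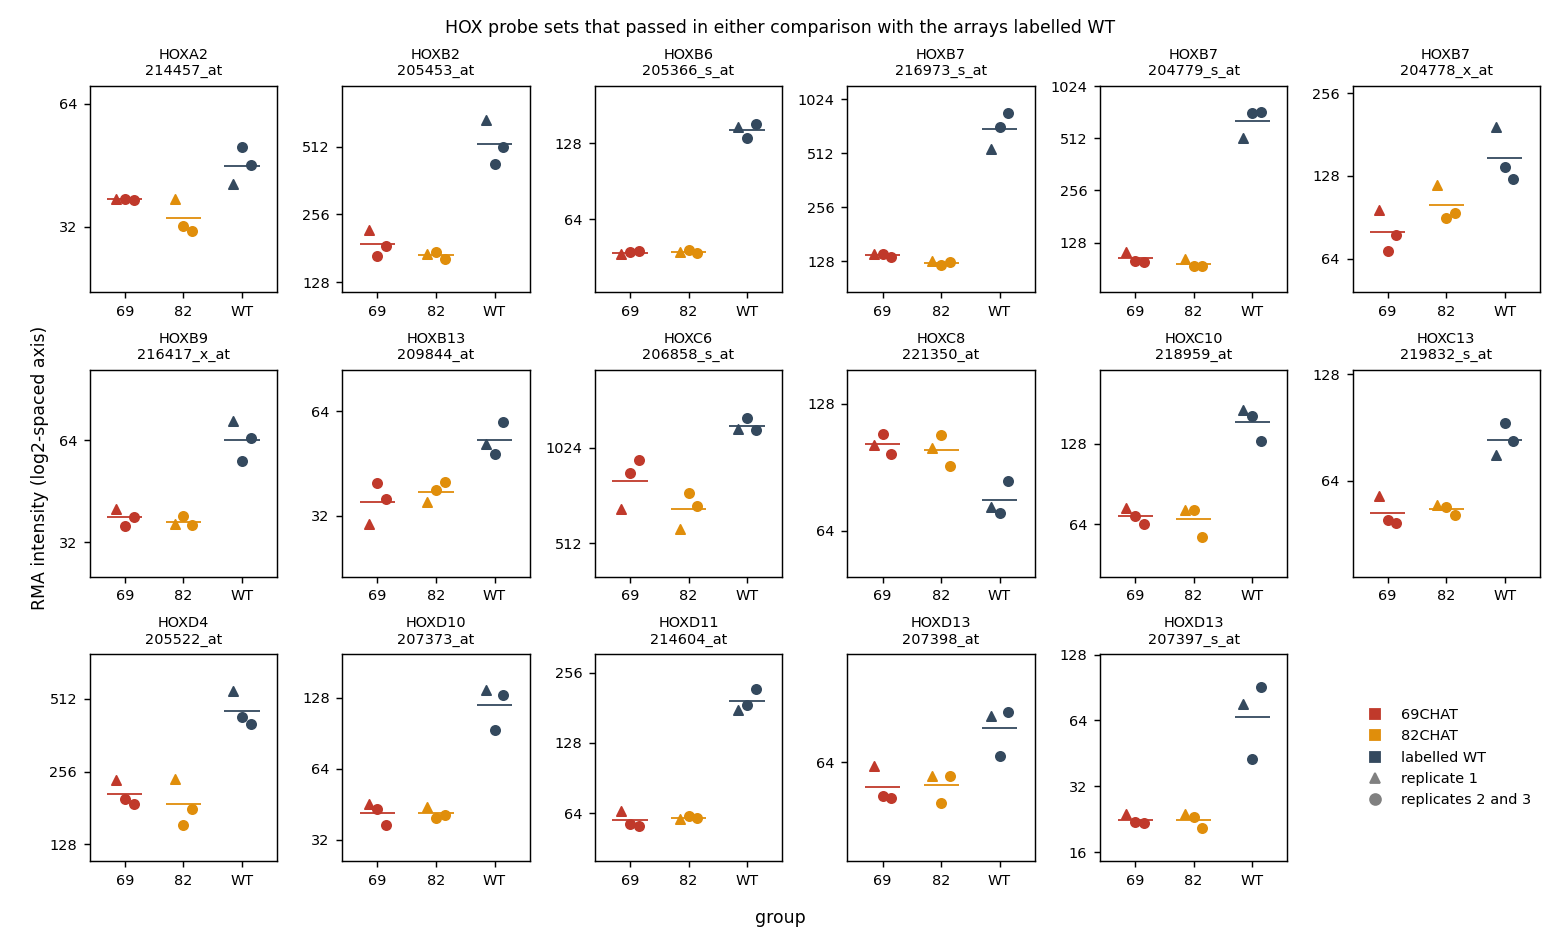
RMA intensity (log2-spaced vertical axis, its range set per panel) on each of the 9 arrays for the 17 HOX probe sets that passed in either comparison, with triangles for replicate 1, circles for replicates 2 and 3, and bars at the mean of the log2 values. In every panel but that of HOXC8 the arrays labelled WT lie above the lines, and in HOXC8 they lie below.

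The HOXB cluster on chromosome 17 held the largest differences. HOXB7, a trunk-level factor, had 3 probe sets. The first (204779_s_at) read 112, 100.1 and 99.3 on the 69CHAT arrays and 103, 93.7 and 93.2 on the 82CHAT arrays, against 511, 718 and 730.2 on the arrays labelled WT. All arrays of the lines lay far below those labelled WT, and the level was 6.21-fold lower in 69CHAT (log2 difference -2.64, SE 0.14, limma adjusted p = 2.8e-06) and 6.68-fold lower in 82CHAT (-2.74, SE 0.14, 2.4e-06). The second (216973_s_at) read 141, 140.5 and 136 in 69CHAT and 129, 122 and 128 in 82CHAT, against 543, 717 and 859. These groups were as clearly apart, at 4.99-fold lower (limma adjusted p = 8.4e-06) and 5.51-fold lower (5.7e-06). Both of these, and sets called lower for HOXB6, HOXC6, HOXC13 and HOXD13, have the suffix _s_at, whose probes can match several transcripts. The last (204778_x_at) has a suffix whose probes can also match other sequences. It gave a smaller difference with intensities of 96.5, 68.2 and 77.8 in 69CHAT and 118, 90.1 and 93.9 in 82CHAT, against 192, 138 and 124. It was 1.86-fold lower in 69CHAT (limma adjusted p = 0.0084), and in 82CHAT its log2 difference of -0.57 missed the threshold (0.059, and 0.0020 with the replicate block), although the groups did not overlap.

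HOXB6, its neighbour in the cluster, was measured by 2 probe sets that did not match. One (205366_s_at) read 46.7, 47.7 and 47.9 in 69CHAT and 47.8, 48.5 and 47.0 in 82CHAT, against 148, 134 and 152, which was 3.05-fold lower (limma adjusted p = 1.2e-06) and 3.03-fold lower (1.3e-06). The other (205365_at) lay between 37.0 and 48.9 on all 9 arrays, under the lower quartile of each, with overlapping groups and log2 differences of -0.12 and -0.20 (adjusted p = 0.48 and 0.24). HOXB2, which acts in the hindbrain, read 218, 167 and 186 in 69CHAT and 171, 174 and 163 in 82CHAT, against 674, 427 and 508. With no overlap it was 2.79-fold lower in 69CHAT (limma adjusted p = 0.00022) and 3.12-fold lower in 82CHAT (0.00012). The line arrays of HOXB2 still stood above the median of their array, so its signal was reduced and not at the bottom of the range.

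Toward the posterior end of HOXB the differences were smaller and the signal dim. HOXB9 (216417_x_at) read 40.2, 35.9 and 37.9 in 69CHAT and 36.2, 38.2 and 35.9 in 82CHAT, against 72.8, 55.4 and 65.1 on the arrays labelled WT, 1.69-fold and 1.74-fold lower (limma adjusted p = 0.00088 and 0.00063). Its only probe set has the suffix _x_at, whose probes can also match other sequences. HOXB13, known from the prostate, read 30.3, 39.9 and 35.8 in 69CHAT and 35.0, 38.0 and 40.0 in 82CHAT, against 51.4, 48.1 and 59.4. Its groups did not overlap, and it was 1.50-fold and 1.40-fold lower (0.0074 and 0.018). In 82CHAT that call was lost without replicate 2 of 82CHAT (0.052) and without replicate 3 labelled WT (0.068).

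The other HOXB genes did not pass without the block. HOXB5, which acts in the enteric nervous system, read 139.6, 125 and 129.5 in 69CHAT and 154, 135 and 124 in 82CHAT, against 203, 177 and 135 (205601_s_at). The groups of that probe set overlapped, and its log2 differences of -0.37 and -0.31 (limma adjusted p = 0.12 and 0.18) came to 0.027 and 0.050 with the replicate block. Its second probe set (205600_x_at), whose probes can also match other sequences, differed by -0.35 and -0.47 (0.20 and 0.079), at 0.024 and 0.0064 with the block. HOXB1, a hindbrain gene, read 233, 165 and 165 in 69CHAT and 339, 202 and 165 in 82CHAT, against 165, 139.9 and 154, with replicate 1 the highest array in each group. Its log2 difference was 0.28 in 69CHAT (adjusted p = 0.47) and 0.56 in 82CHAT (0.15, and 0.030 with the block). HOXB3 lay between 30.1 and 39.5 and HOXB8 between 35.6 and 45.6 on all arrays, under the lower quartile of each array, and neither passed.

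**Figure D2:**
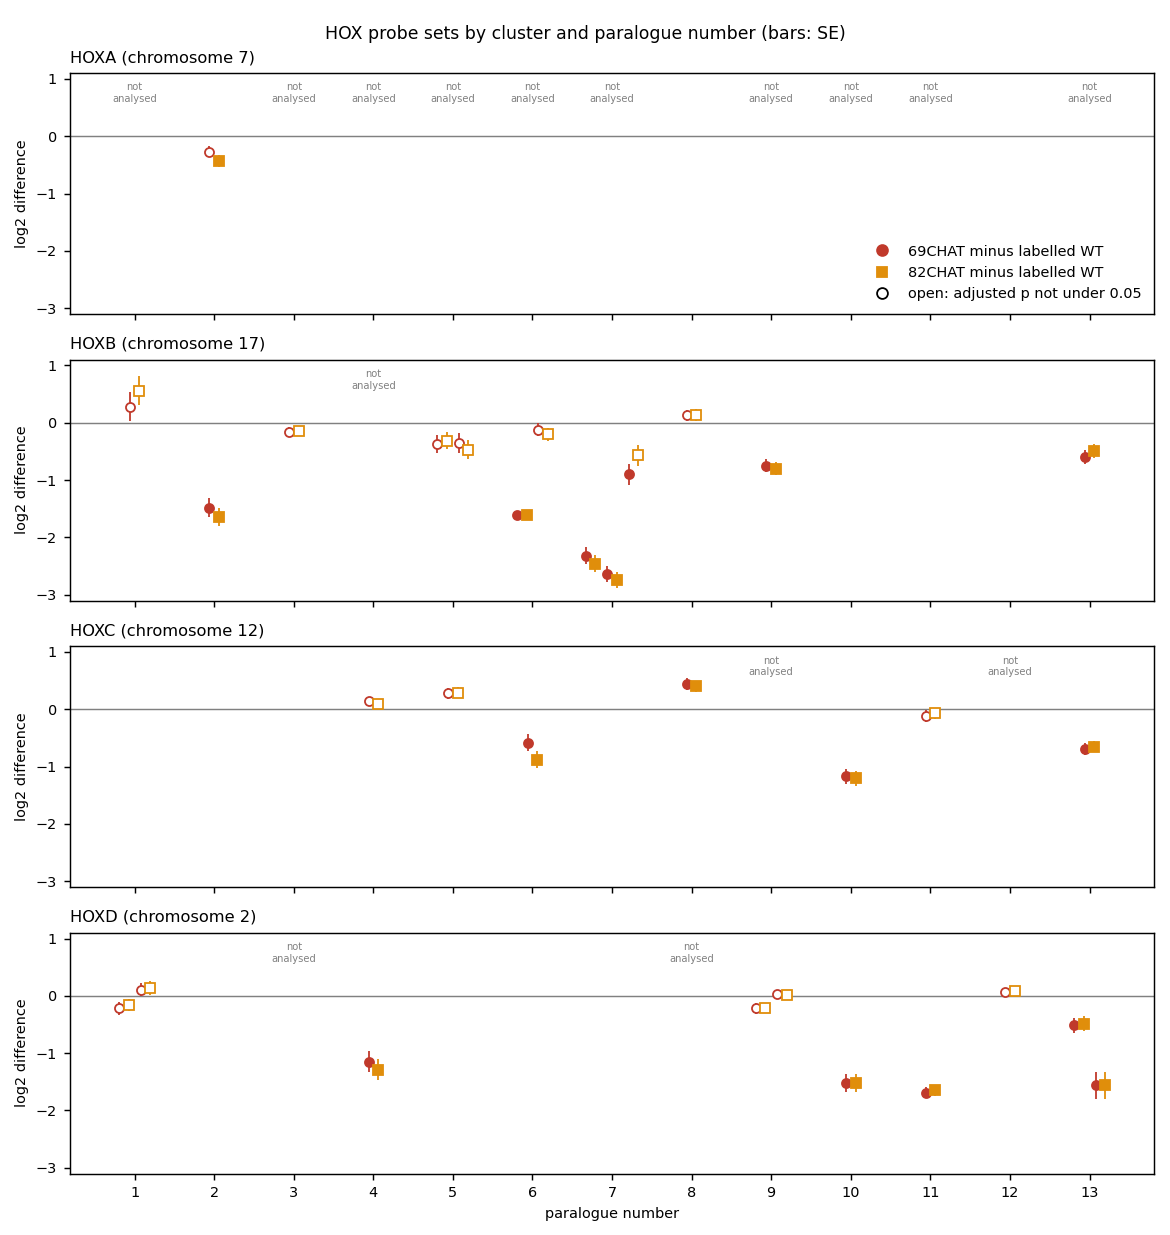
Log2 difference (vertical axis) of each HOX probe set from the arrays labelled WT against paralogue number, 1 panel a cluster, for 69CHAT (red circles) and 82CHAT (orange squares), with SE bars and open symbols where the adjusted p did not pass. Filled symbols stand among open ones along HOXB, HOXC and HOXD, down to -2.74 at HOXB7, and HOXC8 alone is filled above 0.

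Genes of the HOXC cluster on chromosome 12 differed in both directions. HOXC6, a gene of brachial and thoracic spinal levels, gave 655, 854 and 936 in 69CHAT and 568, 736 and 672 in 82CHAT, against 1170.0, 1273 and 1166 on the arrays labelled WT. No array of a line reached those, and HOXC6 was 1.49-fold lower in 69CHAT (log2 difference -0.58, SE 0.15, limma adjusted p = 0.018, but 0.066 without replicate 2 labelled WT) and 1.84-fold lower in 82CHAT (-0.88, SE 0.15, 0.0022). HOXC8, which in mouse sets motor neuron identity at brachial level, was the 1 member higher in either line. It read 102, 109 and 97.3 in 69CHAT and 100.5, 108 and 91.2 in 82CHAT, against 72.9, 70.5 and 83.9. The groups did not overlap and the rise was 1.36-fold (adjusted p = 0.010) and 1.32-fold (0.017). In 82CHAT it was lost in replicates 2 and 3 alone (0.054) and without replicate 2 of 82CHAT (0.068), replicate 1 labelled WT (0.055) or replicate 2 labelled WT (0.065).

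HOXC4 and HOXC5, genes of cervical levels, did not pass. HOXC4 read 742, 738 and 684 in 69CHAT and 684, 731 and 684 in 82CHAT, against 663, 664 and 629, log2 differences of 0.15 and 0.10 (limma adjusted p = 0.19 and 0.35). HOXC5 read 526, 479.6 and 505 in 69CHAT and 529, 540.4 and 449 in 82CHAT, against 449, 405 and 390.2, differences of 0.28 and 0.29 (0.066 and 0.061, but 0.029 and 0.027 with the replicate block). For both genes every array of the lines lay above those labelled WT, narrowly for HOXC5 (449.5 against 448.6), in a cluster whose HOXC6 lay lower. HOXC4, HOXC5 and HOXC6 overlap in the RefSeq gene table, so their probe sets may share transcripts.

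At the posterior end, HOXC10, a gene of lumbar levels, read 73.3, 68.9 and 63.8 in 69CHAT and 72.4, 72.1 and 57.5 in 82CHAT, against 171, 163 and 131. With wide separation it was 2.24-fold lower (limma adjusted p = 0.00025) and 2.30-fold lower (0.00021). HOXC13, known for hair and nail formation, read 58.2, 49.6 and 48.6 in 69CHAT and 54.9, 54.2 and 51.3 in 82CHAT, against 75.9, 92.9 and 83.0, 1.61-fold and 1.56-fold lower (0.0012 and 0.0017). HOXC11, which stands between those genes in the cluster, did not pass (differences of -0.12 and -0.07, adjusted p = 0.41 and 0.63), at 153 to 171 on the arrays of the lines and 157 to 192 on those labelled WT.

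In the HOXD cluster on chromosome 2 the posterior genes HOXD10, HOXD11 and HOXD13 were lower in the lines, and so was HOXD4, while HOXD1, HOXD9 and HOXD12 did not pass. HOXD11, which shapes forearm and kidney with its paralogues, read 65.1, 57.5 and 56.5 in 69CHAT and 60.5, 61.9 and 61.1 in 82CHAT, against 177, 186 and 217. The groups stood far apart, 3.23-fold lower (log2 difference -1.69, SE 0.10, limma adjusted p = 4.6e-06) and 3.15-fold lower (-1.65, SE 0.10, 5.2e-06). HOXD10, a gene of lumbar motor neurons in mouse, read 45.3, 43.1 and 36.8 in 69CHAT and 44.3, 39.8 and 40.8 in 82CHAT, against 139, 93.1 and 132, 2.87-fold and 2.88-fold lower (0.00013 in each line). HOXD13, the digit gene mutated in synpolydactyly, gave 23.9, 22.0 and 21.7 in 69CHAT and 23.9, 23.1 and 20.6 in 82CHAT, against 75.8, 42.6 and 90.9 (207397_s_at). That was 2.95-fold and 2.96-fold lower (0.0013 in each line), with replicate 2 labelled WT the lowest of its group and the lines in the bottom 4.3% of their arrays.

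The second HOXD13 probe set (207398_at) was lower by less, at 62.5, 52.4 and 51.7 in 69CHAT and 59.1, 50.2 and 59.0 in 82CHAT, against 84.4, 66.5 and 86.3. The groups did not overlap, and the level was 1.42-fold and 1.40-fold lower (limma adjusted p = 0.020 and 0.023). The call in 69CHAT was lost without replicate 2 (0.076) or 3 (0.073) of 69CHAT or replicate 1 (0.070) or 3 (0.076) labelled WT. In 82CHAT it was lost without replicate 2 of 82CHAT (0.088) or replicate 1 (0.077) or 3 (0.085) labelled WT. HOXD4, expressed up to the hindbrain, read 235, 197 and 188 in 69CHAT and 239, 154 and 179 in 82CHAT, against 555, 431 and 401, 2.23-fold lower (0.0017) and 2.44-fold lower (0.00092), with no overlap.

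Among HOXD genes that did not pass, HOXD9 (205604_at) read 159, 189 and 175 in 69CHAT and 178, 182 and 165 in 82CHAT, against 208, 204 and 194. Its groups did not overlap, but the log2 differences were -0.22 and -0.21 (limma adjusted p = 0.11 and 0.12). HOXD1 (205975_s_at) read 229 to 252 in 69CHAT and 233 to 276 in 82CHAT, against 255 to 310.3, differences of -0.22 and -0.16 (0.19 and 0.33). HOXD12 (24.9 to 29.1), the second HOXD9 probe set (37.9 to 45.6) and the second of HOXD1 (25.3 to 34.4) stayed under the lower quartile of every array and did not pass. The single HOXA gene, HOXA2, which patterns the second pharyngeal arch, was also under the lower quartile of every array, so its fold is approximate. It read 37.5, 37.5 and 37.1 in 69CHAT and 37.5, 32.2 and 31.3 in 82CHAT, against 40.7, 50.1 and 45.3. It was 1.35-fold lower in 82CHAT (0.013, but 0.054 without replicate 2 of 82CHAT and 0.051 without replicate 2 labelled WT), and differed by -0.27 in 69CHAT (0.085).

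RefSeq promoter windows (GRCh38.p14) matched 10 of the 24 member genes, and 5 HOXD windows are shown because called and uncalled genes stand side by side there. Each is the 250 bases before the annotated start, 5′ to 3′, and capitals mark matches on either strand. The TATA box was searched as TATAAA. The second motif, a common promoter element, was searched as CCAAT. A site of PBX-HOX type was searched as TGATNNAT.
HOXD13 chr2:176092471-176092720 (+): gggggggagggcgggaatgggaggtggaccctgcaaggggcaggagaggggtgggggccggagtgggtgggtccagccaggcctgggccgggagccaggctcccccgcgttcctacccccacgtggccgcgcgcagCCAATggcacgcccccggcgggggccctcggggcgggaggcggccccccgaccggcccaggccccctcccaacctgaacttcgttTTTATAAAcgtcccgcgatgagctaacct
HOXD12 chr2:176099545-176099794 (+): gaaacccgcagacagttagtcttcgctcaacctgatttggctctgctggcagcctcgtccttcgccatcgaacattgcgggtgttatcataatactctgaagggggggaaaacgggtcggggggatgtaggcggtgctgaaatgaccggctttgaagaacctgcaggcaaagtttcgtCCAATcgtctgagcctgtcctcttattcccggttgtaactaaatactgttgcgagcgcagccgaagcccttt
HOXD11 chr2:176107030-176107279 (+): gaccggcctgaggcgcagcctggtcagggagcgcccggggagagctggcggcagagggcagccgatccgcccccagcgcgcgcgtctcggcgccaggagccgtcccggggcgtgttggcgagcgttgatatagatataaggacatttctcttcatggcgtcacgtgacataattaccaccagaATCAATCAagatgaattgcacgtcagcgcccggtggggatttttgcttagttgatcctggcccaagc
HOXD10 chr2:176116528-176116777 (+): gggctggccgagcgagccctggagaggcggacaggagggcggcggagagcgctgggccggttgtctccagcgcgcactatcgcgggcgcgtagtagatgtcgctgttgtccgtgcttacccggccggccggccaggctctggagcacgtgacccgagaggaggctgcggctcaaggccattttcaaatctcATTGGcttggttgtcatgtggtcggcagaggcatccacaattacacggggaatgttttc
HOXD4 chr2:176151300-176151549 (+): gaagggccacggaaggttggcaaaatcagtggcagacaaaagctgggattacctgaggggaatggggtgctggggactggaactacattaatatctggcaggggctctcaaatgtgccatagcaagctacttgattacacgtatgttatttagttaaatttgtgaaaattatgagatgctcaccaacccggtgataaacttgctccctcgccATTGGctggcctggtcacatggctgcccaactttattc
HOXD13, HOXD12, HOXD10 and HOXD4 each hold 1 CCAAT match, which 32.0% of the 35116 windows of the table have. HOXD11 holds no CCAAT and has 1 TGATNNAT match, present in 6.47% of windows. The TATAAA match, present in 10.7% of windows, was found in HOXD13 alone of the 10 member windows, where its 2 hits on opposite strands overlap and lie 29 and 27 bases before the start. The dinucleotide CG occurs 21, 16, 23, 23 and 4 times in the order shown, beside a median of 11 over all windows. The window of HOXD1, which did not pass and is not shown, has 31. Called and uncalled HOXD genes are too few here to compare by this count. HOXC4 and HOXC5 share 1 window in the table, with 2 CCAAT matches and 14 CG.

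Counts by paralogue number depended on the fit. Of all probe sets 15.3% were lower and 10.9% higher in 69CHAT, and 15.7% and 11.0% in 82CHAT. With the replicate block these shares were 19.9% and 16.6% in 69CHAT, and 20.3% and 17.9% in 82CHAT. Of 6 probe sets of paralogues 1 to 3, 1 was lower in 69CHAT (HOXB2) and 2 in 82CHAT (HOXB2 and HOXA2), too few to set apart from those shares. Of 13 of paralogues 4 to 8, 6 were lower in 69CHAT and 5 in 82CHAT, and 1 was higher in each, but with the replicate block 8 were lower and 2 higher in each. Of 12 of paralogues 9 to 13, 8 were lower in each line and 0 higher, with the block as without it, with medians of -0.64 and -0.57. At 2-fold or more 4 of the 13 and 4 of the 12 were lower in each line, again without a share over all probe sets. Whether these shares differ was not tested, and the 8 posterior probe sets stand for 7 genes. By cluster, 7 of 13 HOXB, 3 of 7 HOXC and 5 of 10 HOXD probe sets were lower in 69CHAT, and 6, 3 and 5 in 82CHAT.

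**Figure D3:**
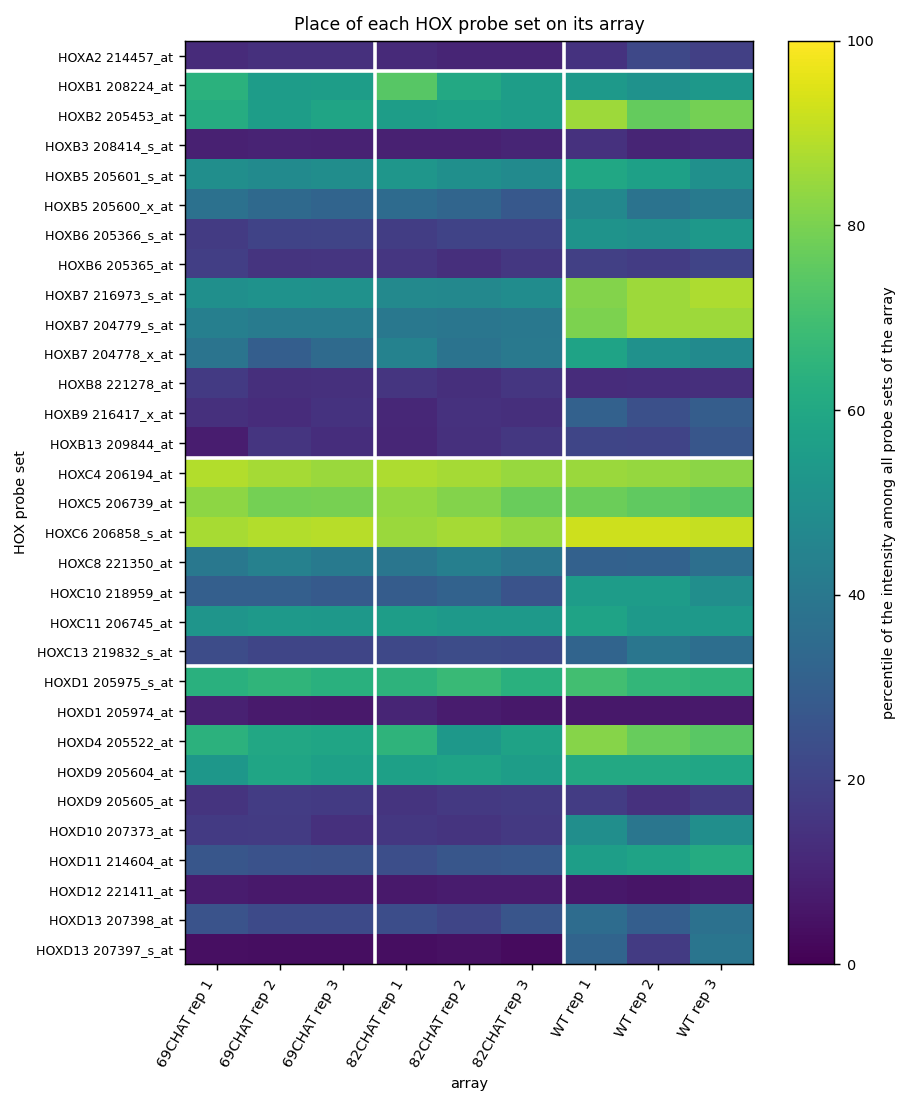
Percentile of each HOX probe set's intensity among all probe sets of its array (colour), with probe sets in rows by cluster and paralogue number and the 9 arrays in columns; rows are to be read across, since probe sets differ in sensitivity. HOXB7, HOXD10, HOXD11 and HOXC10 brighten on the arrays labelled WT, and HOXC4 to HOXC6 are bright on all 9.

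Part of the HOX signal was dim, and more of it in the lines than on the arrays labelled WT. All 3 arrays were under the lower quartile for 13 probe sets in 69CHAT and for 13 in 82CHAT, against 7 on the arrays labelled WT, and those 7 were under it on all 9 arrays. The array's median was exceeded on all 3 arrays by 9 probe sets in 69CHAT and 9 in 82CHAT, against 14 on the arrays labelled WT. On the arrays labelled WT the 7 and 14 of 31 lie near the shares that a lower quartile and a median set by definition. The 9 that exceeded the median on all 9 arrays were those of HOXB1, HOXB2, HOXC4, HOXC5, HOXC6, HOXC11, HOXD4 and the brighter of HOXD1 and HOXD9. A further 6 lay under the lower quartile on every array of the lines and not on all of those labelled WT, namely HOXB6 (205366_s_at), HOXB9, HOXB13, HOXC13, HOXD10 and HOXD13 (207397_s_at). For them, and for HOXA2, the fold is set against signal near the bottom of the range and is approximate. No detection calls were used here.

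The 82-kDa line and the 69-kDa line were compared directly to ask whether the forms part the HOX genes. No HOX probe set passed in limma (0 of 31, beside 0 of all 22215, or 0.0%), with 0 of 31 at an unadjusted p under 0.05, where 733 of all probe sets (3.3%) had one. The log2 difference, 82CHAT minus 69CHAT, ran from -0.30 at HOXC6 (95% interval -0.63 to 0.03, unadjusted p = 0.072) to 0.32 at HOXB7 (204778_x_at, -0.12 to 0.76). All 31 intervals lay within 1 log2 unit of 0 and 24 lay within 0.5, the widest reaching 0.85 at HOXB1. With array weights updated gene by gene, 3 probe sets passed (HOXA2, HOXC6 and HOXB7), with differences of -0.22, -0.28 and 0.36. That fit called 3.61% of all probe sets higher in 82CHAT and 4.06% lower, so 1 higher and 2 lower of 31 lies near the background. For 1 probe set (HOXB7, 216973_s_at) the groups did not overlap, 82CHAT being lower, as held for 3.66% of all probe sets, and for 0 was 82CHAT higher, beside 3.18%. In replicates 2 and 3 alone 0 of 31 passed, where 0.981% of all were higher and 1.06% lower in 82CHAT.

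**Figure D4:**
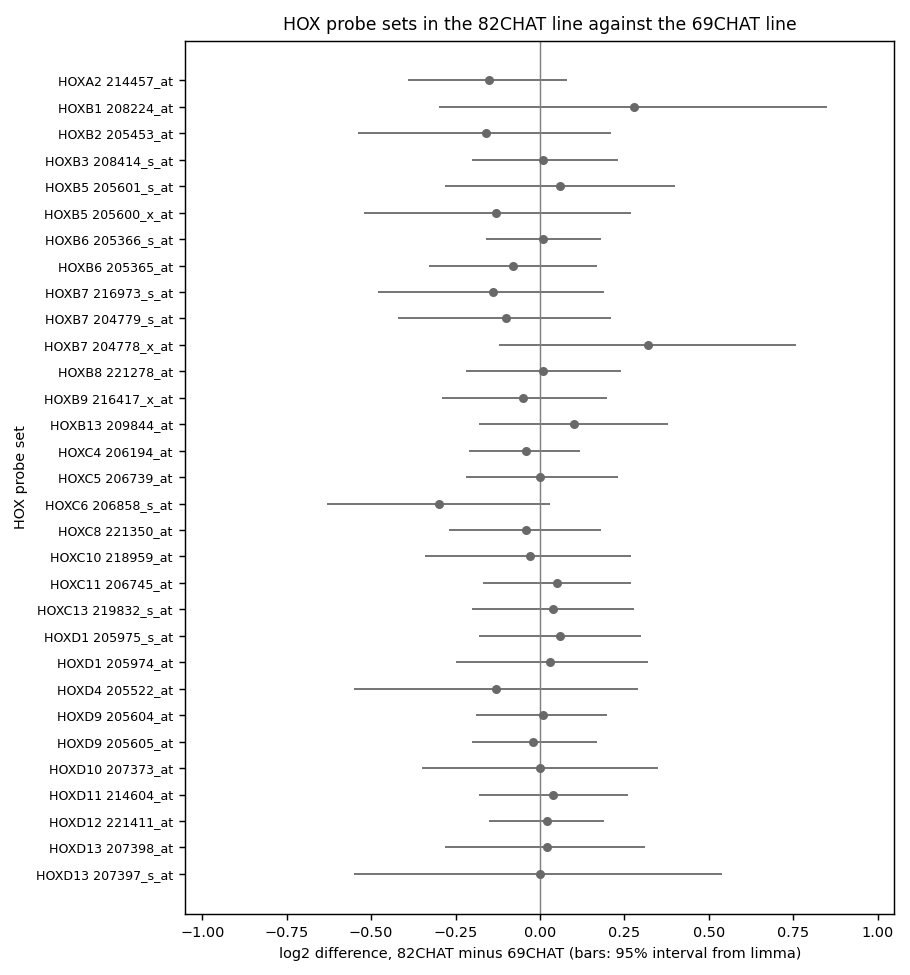
Log2 difference of the 31 HOX probe sets, 82CHAT minus 69CHAT (horizontal axis), with 95% intervals from limma. Each interval crosses 0, and the points lie between -0.30 and 0.32.

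Replicate 1 of every group parted from replicates 2 and 3 over all probe sets, so the differences were also read within each. On the replicate 1 arrays alone, 1 a group and without a test, the 16 called differences of each comparison kept their sign, the falls running from -0.38 to -2.19 in 69CHAT and from -0.12 (HOXA2) to -2.31 in 82CHAT. The replicate 1 arrays were part of the fit that made these calls, so the kept sign is not separate support for them. In replicates 2 and 3 alone 16 were lower and 2 higher in 69CHAT (background 20.5% and 18.5%), and 17 lower and 1 higher in 82CHAT (20.2% and 19.4%).

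Genes beside the clusters were read from the RefSeq gene order (GRCh38.p14), the 5 nearest with a probe set on each side, and their counts stand beside the 10.9% higher and 15.3% lower of all probe sets in 69CHAT and the 11.0% and 15.7% in 82CHAT. Beside HOXB, 0 of 13 probe sets were lower in either line and 6 were higher in 69CHAT and 5 in 82CHAT, among them CBX1, a heterochromatin protein (2.92-fold and 2.95-fold, limma adjusted p = 0.00044 and 0.00042), and NFE2L1, a transcription factor (1.58-fold and 1.39-fold). Beside HOXC, 0 of 15 were lower and 5 higher in each line, with CBX5, another heterochromatin protein, 2.04-fold and 2.21-fold higher (0.00092 and 0.00050). With the replicate block 7 were higher beside HOXB in 69CHAT and 6 in 82CHAT, and beside HOXC 6 and 7, with 0 lower. Whether members and neighbours differ in these counts was not tested. Beside HOXD, 3 of 17 were lower and 3 higher in each line, the lower share being near that over all probe sets. With the replicate block 4 were lower in each line and 3 higher in 69CHAT and 6 in 82CHAT. The background with the block was 19.9% lower and 16.6% higher in 69CHAT, and 20.3% and 17.9% in 82CHAT. MTX2, a mitochondrial import protein, was 1.44-fold and 1.47-fold lower. Beside HOXA, 6 of 17 were lower in 69CHAT and 8 in 82CHAT, and 1 was higher in each. There the block gave 7 lower in 69CHAT and 9 in 82CHAT, and 2 higher in each. SKAP2, an adaptor of immune and adhesion signalling, read 19.5, 19.8 and 19.5 in 69CHAT and 19.8, 18.7 and 18.8 in 82CHAT, against 172, 158 and 144, 8.04-fold and 8.26-fold lower (204362_at, 8.2e-08 and 7.7e-08). The line arrays of SKAP2 lie near the bottom of the range, so these folds are approximate, and 1 of its 4 probe sets (217035_at) did not pass.

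**Figure D5:**
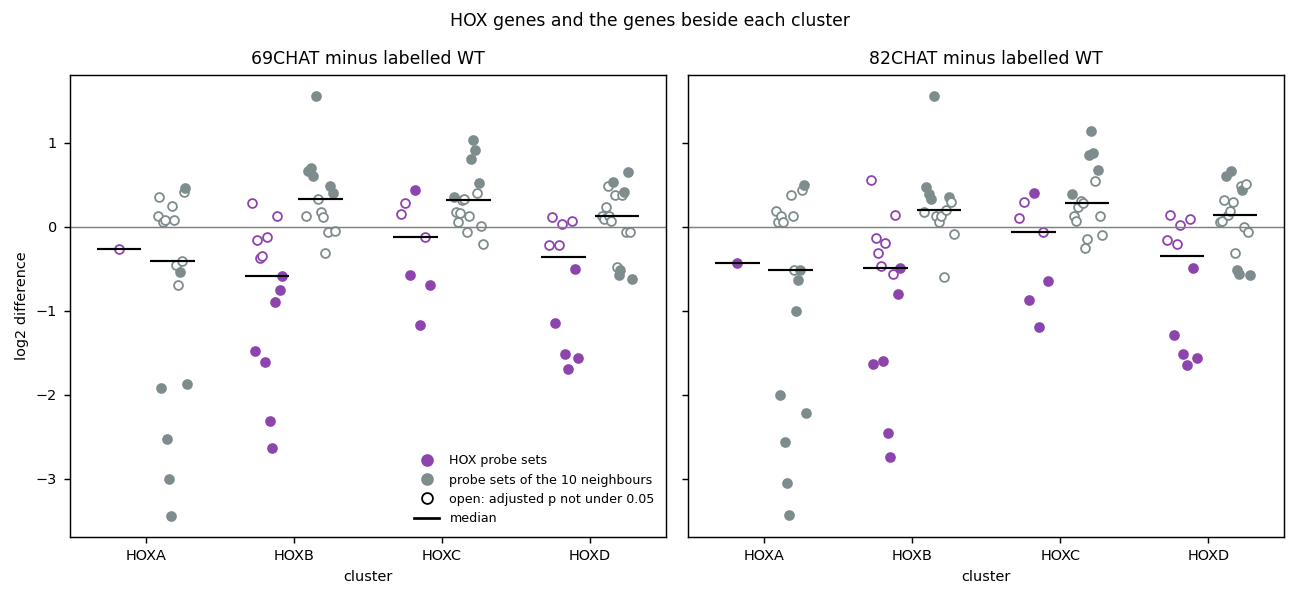
Log2 difference from the arrays labelled WT (vertical axis) for HOX probe sets (purple) and probe sets of the 10 genes nearest each cluster (grey), by cluster, for 69CHAT (left) and 82CHAT (right), with filled symbols where the adjusted p passed and bars at the medians. Beside HOXB and HOXC no filled grey symbol lies below 0, and beside HOXA several do.

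Probe sets of HOX partners and regulators passed in both directions, to be read beside the 10.9% higher and 15.3% lower of all probe sets in 69CHAT, the 11.0% and 15.7% in 82CHAT, and the median log2 difference of 0.06 in each. Of 16 probe sets of the TALE cofactors, for 6 genes, 9 were higher and 2 lower in 69CHAT and 7 and 2 in 82CHAT, with medians of 0.37 and 0.28. MEIS1 read 1641, 1991 and 2082 in 69CHAT and 1711, 1986 and 2549.8 in 82CHAT, against 112, 125 and 102, 16.8-fold and 18.2-fold higher (limma adjusted p = 5.0e-07 and 4.5e-07). Its relative MEIS2 was lower, at 126, 82.9 and 69.9 in 69CHAT and 119.8, 176 and 149.8 in 82CHAT, against 384, 396 and 312, 4.01-fold and 2.47-fold lower (0.00024 and 0.0027). PKNOX2 was 1.82-fold and 1.86-fold higher, and PKNOX1 1.47-fold and 1.26-fold higher on dim signal.

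Polycomb genes passed at 5 higher and 6 lower of 38 probe sets in 69CHAT and 7 and 5 in 82CHAT (medians 0.14 and 0.11), in 69CHAT close to the shares over all probe sets. With the replicate block they were 8 and 8 in 69CHAT and 11 and 8 in 82CHAT. The background with the block was 16.6% and 19.9% in 69CHAT and 17.9% and 20.3% in 82CHAT. PCGF1, a subunit of a variant Polycomb complex, was 5.10-fold and 5.16-fold higher (limma adjusted p = 7.0e-06 and 6.5e-06), CBX2, which reads methylated histone H3, 2.54-fold and 3.13-fold higher, and PHC1 2.03-fold and 1.88-fold higher. RBBP7, a histone-binding subunit, was 3.19-fold and 3.66-fold lower. Of 31 probe sets of trithorax proteins and demethylases 11 were higher and 4 lower in 69CHAT, and 9 and 5 in 82CHAT, with medians of 0.29 and 0.23. With the block these counts were 14 and 4 in 69CHAT and 13 and 5 in 82CHAT. KDM6A, a demethylase that removes the Polycomb mark, read 34.9, 35.4 and 38.5 in 69CHAT and 30.3, 33.0 and 28.6 in 82CHAT, against 109, 177 and 157, 3.99-fold and 4.74-fold lower (3.7e-05 and 1.9e-05), approximate on such dim signal, while KDM6B, of the same activity, was 1.71-fold and 1.62-fold higher. SMARCA4 was 1.65-fold and 1.55-fold higher and KMT2B, a histone methyltransferase, 1.61-fold and 1.91-fold lower.

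Upstream regulators, mainly of retinoic acid, which induces HOX genes in embryos, passed at 5 higher and 4 lower of 35 probe sets in 69CHAT and 4 and 4 in 82CHAT (medians 0.11 and 0.10), near the shares over all probe sets. With the replicate block they were 8 and 6 in 69CHAT and 12 and 6 in 82CHAT, beside a background of 16.6% and 19.9% in 69CHAT and 17.9% and 20.3% in 82CHAT. ALDH1A2, which makes retinoic acid, read 63.0, 47.9 and 46.6 in 69CHAT and 62.8, 49.5 and 50.3 in 82CHAT, against 788, 532 and 732. No other named gene of that list differed by as much, and ALDH1A2 was 13.0-fold and 12.5-fold lower (limma adjusted p = 1.9e-06 and 2.1e-06). ALDH1A3 was 1.48-fold and 1.46-fold lower, and RXRA, a partner of retinoic acid receptors, 1.52-fold and 1.57-fold lower. CRABP2, a retinoic acid carrier, was 3.31-fold higher in 69CHAT (0.0086) and 2.03-fold in 82CHAT without passing (0.080, but 0.026 with the block). Of 11 probe sets of ParaHox genes and EVX relatives 1 was lower in each line, MNX1, a motor neuron factor, by 1.68-fold and 1.66-fold. No member of these lists passed between the lines.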

How the data were processed

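The deposited values were RMA intensities on a linear scale, 1 per probe set and array; RMA is named per the submitters' processing notes, and its version is not given in the sources used here. Of 22283 probe sets 68 controls were left out, and 22215 were tested. The platform annotation gave 1 symbol for 19065, several for 1043 and none for 2107. HOX members needed 1 symbol; 3 probe sets that pair a HOX symbol with others were not used, and 15 HOX genes of the RefSeq table had no member and are not analysed here. The members and lists were chosen with earlier results of these data known. Groups came from the labels. Log2 intensities of all 9 arrays were fitted with limma 3.58.1 (R 4.3.3) as 3 group means, and two-sided p-values were adjusted by Benjamini-Hochberg over all probe sets, with 0.05 as threshold. The number of arrays limits the precision. Every HOX probe set that passed in a comparison is given per array, the others by values, ranges or counts with up to 6 of highest intensity, and each list by up to 4 genes of smallest adjusted p. Replicate numbers come from the labels. Deviations from group means correlated at 0.28 to 0.57 in all 9 same-numbered pairs, which was taken as pairing. Replicate 2 with replicate 3 of other groups also correlated, at 0.21 to 0.48, so a pairing of 2 apart from 3 is not shown. Replicate 1 correlated with either at -0.59 to -0.28. Deviations cancel out within a group, so these negative values follow from the positive ones and are not separate evidence. The numbers thus part replicate 1 from the others more than 2 from 3. The fit with replicate number as a block is given for each HOX probe set whose call it moves and where it moves counts of the other lists. Counts by cluster and of the cell type markers are given without it. Alternatives were scaling, pseudocount, dim filters, probe set choice, array weights and leaving out each array. The fit was tested on simulated data.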

Additional observations from a re-analysis of the deposited data

How the results depend on the processing

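The counts of HOX probe sets passing against the arrays labelled WT were 16 in 69CHAT and 16 in 82CHAT, and 0 for 82CHAT against 69CHAT. They came to 5 and 5 among probe sets above the median by mean intensity (12 HOX probe sets tested), 8 and 9 for probe sets of suffix _at without a letter (19 tested), and 9 and 9 at 2-fold or more. Fewer probe sets are tested in those first settings. No share over all probe sets was counted for these, for leaving out arrays or for the unconverged weights. Their counts are therefore not set against a background. Leaving out each array gave 15 to 17 in 69CHAT, 12 to 18 in 82CHAT (12 without replicate 2 of 82CHAT) and 0 between the lines. The replicate block gave 19, 21 and 0. Between the lines, array weights gave 23, with weights of 59.4 and 61.1 on replicate 2 of 69CHAT and of 82CHAT and an estimate that did not converge. Weights updated gene by gene, chosen after seeing the data, gave 3. The unconverged weights also turned the sign of the line difference at HOXB13 (-0.07), HOXB9 (0.09), HOXC10 (0.06), HOXD13 (207398_at, -0.06) and HOXD9 (205604_at, -0.06). Of the 189 probe sets of the other lists 71 passed in 69CHAT, 69 in 82CHAT and 0 between the lines. For 69CHAT they came to 30 with suffix _at alone, 42 with 1 probe set per gene, 121 and 107 with both array weights, 22 at 2-fold or more and 58 to 82 leaving out each array. For 82CHAT they came to 45 above the median intensity, 27 with suffix _at alone, 40 with 1 probe set per gene, 125 and 108 with array weights, 105 in replicates 2 and 3, 20 at 2-fold or more and 54 to 78 leaving out each array. Between the lines they came to 143 and 14 with array weights, 3 in replicates 2 and 3 and 0 leaving out each array. The cause of changes in the other settings was not tested.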
